A study of Mus musculus with 10 samples.

Results

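The claudins of the biliary epithelium are described here as 10 genes, Cldn1, Cldn2, Cldn3, Cldn4, Cldn6, Cldn7, Cldn8, Cldn10, Cldn12 and Cldn15. Their rows were taken by gene symbol from a table of 49568 genes, in which 25 rows carry a claudin symbol. All 10 had a mean normalized count of at least 10 and were tested. RNA was measured in reactive cholangiocytes, the epithelial cells of bile ducts as they proliferate after liver injury, sorted from 10 mice with 1 sample per mouse. The 5 Smad4del mice carried Alb-Cre and Smad4fl/fl, and the 5 Ctl mice are given by the labels as Smad4wt/wt and by the methods as animals without Alb-Cre. Cre and the floxed allele therefore cannot be told apart. Alb-Cre is driven by the albumin promoter and deletes in the liver lineage, in hepatocytes as well as in cholangiocytes. All mice, of a mixed background, had eaten chow with 0.1% DDC for 2 weeks, a compound that injures bile ducts through porphyrin plugs. Age, sex and litter are not given in the labels. Cells were sorted as positive for the epithelial protein EPCAM and negative for CD45, a leukocyte marker, and for TER119, an erythroid marker.

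Claudins are small proteins that span the membrane and join neighbouring epithelial cells at the tight junction. Some seal the space between cells, and others form pores that let chosen ions or water pass. In bile ducts this barrier keeps bile salts in the lumen and away from the tissue around the duct, and it sets how leaky the duct is to ions and water. Smad4 is the partner that receptor-activated SMAD proteins share in TGFβ and BMP signalling.

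The normalized count used throughout is the number of reads on a gene divided by 1 size factor per mouse, so that a value can be compared between mice but, without a correction for length, not between genes. Fold changes are Smad4del over Ctl, on the scale of log2(normalized count + 1), and adjusted p-values come from limma with Benjamini-Hochberg adjustment over the 14870 genes tested. A gene was called at an adjusted p under 0.05. Each mouse is named by the number in its label. Reads on genes amounted to 16734672 to 19710560 in the Smad4del mice and 16249719 to 21277339 in the Ctl mice. Smad4 itself averaged 877 ± 144 in Smad4del cells and 3389 ± 347 in Ctl cells (SD, n = 5 each), with no overlap (log2 fold change -1.96, limma adjusted p = 1.09e-05). The biliary marker Epcam did not pass the test (log2 fold change 0.14, limma adjusted p = 0.484), while Krt19, a keratin of bile duct cells, rose by 0.53 on the log2 scale (limma adjusted p = 0.027). Over 12 cholangiocyte markers, 2 were called higher and 0 lower, and their summed level was 542455 to 669549 in Smad4del mice and 373374 to 547126 in Ctl mice. Most of that sum was 1 gene, Spp1, at 409022 to 530196 in Smad4del mice and 280899 to 417243 in Ctl mice. Markers of other cells were present in both cohorts and also moved. The summed level of 12 endothelial markers was 4663 to 11057 in Smad4del mice and 15550 to 42738 in Ctl mice, and 11 of the 12 were called lower. The sum of 8 mesenchymal markers was 7892 to 14144 in Smad4del mice and 17037 to 44527 in Ctl mice, with 2 called lower. The 12 macrophage markers summed to 25593 to 103509 in Smad4del mice and 36888 to 291774 in Ctl mice, and the 12 hepatocyte markers to 77944 to 115844 in Smad4del mice and 72402 to 102322 in Ctl mice, with 0 called in either list. Cd14 and Lyz2 made up most of the macrophage sum in every mouse other than A5215, and the median log2 fold change over that list was -2.47, against -1.63 for the endothelial, -1.05 for the mesenchymal, 0.32 for the hepatocyte and 0.24 for the cholangiocyte list. The lowest cholangiocyte sum and the highest endothelial and macrophage sums belonged to Ctl mouse A5215. In bulk samples of this kind, fewer cells of a type and less RNA per cell cannot be told apart.

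Of the 10 claudins, Cldn8 was called higher in Smad4del cells and none was called lower. Over all genes tested, 2.43% were called higher and 4.69% lower, which is 362 and 697 genes. With each mouse scaled to 1 median these were 626 and 639 genes, and by quantile normalization 579 and 607. The values of Cldn6 also did not overlap between the cohorts, Cldn3 and Cldn7 were above every Ctl mouse in 4 of 5 Smad4del mice, and Cldn2 averaged nearly the same in both cohorts. A lack of overlap with Smad4del above Ctl was thus seen for 2 of 10 claudins, against 3.5% of all genes, and one with Smad4del below Ctl for 0 of 10, against 4.59% of all genes. The median log2 fold change of the 10 was 0.092, with 6 above 0 and 4 below, and that of all genes tested was -0.005, with 49.4% above 0.

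The promoters of Cldn6, Cldn3 and Cldn4 are shown because the first 2 of these genes had their higher means in Smad4del cells and Cldn4 its higher mean in Ctl cells, although Cldn3 and Cldn4 are neighbours on chromosome 5, 39279 bases apart and on opposite strands. Each window runs 5′ to 3′ on the strand of its gene, from 250 bases before to 50 after the RefSeq start on GRCm38.p6. Capitals mark matches, on either strand, to CAGAC, the short binding element of SMAD proteins, which reads GTCTG on the opposite strand. They also mark the AP-1 motif TGANTCA. GTCTAGAC, a palindromic SMAD element, and AACCNGTT, a grainyhead motif, were searched as well, and these motifs do not overlap one another in the windows shown.
Cldn6, chr17:23679115-23679414, plus strand: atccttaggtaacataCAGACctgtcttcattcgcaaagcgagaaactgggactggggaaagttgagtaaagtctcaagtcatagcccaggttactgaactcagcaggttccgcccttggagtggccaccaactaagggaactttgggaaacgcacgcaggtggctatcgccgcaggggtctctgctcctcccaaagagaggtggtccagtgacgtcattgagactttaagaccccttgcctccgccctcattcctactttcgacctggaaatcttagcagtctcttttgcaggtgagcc
Cldn3, chr5:134985964-134986263, plus strand: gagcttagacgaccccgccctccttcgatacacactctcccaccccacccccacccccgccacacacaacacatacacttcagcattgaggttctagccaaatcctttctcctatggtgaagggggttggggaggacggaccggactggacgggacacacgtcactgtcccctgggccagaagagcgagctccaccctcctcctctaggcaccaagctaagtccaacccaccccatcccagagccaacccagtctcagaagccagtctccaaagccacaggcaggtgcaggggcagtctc
Cldn4, chr5:134946885-134947184, minus strand: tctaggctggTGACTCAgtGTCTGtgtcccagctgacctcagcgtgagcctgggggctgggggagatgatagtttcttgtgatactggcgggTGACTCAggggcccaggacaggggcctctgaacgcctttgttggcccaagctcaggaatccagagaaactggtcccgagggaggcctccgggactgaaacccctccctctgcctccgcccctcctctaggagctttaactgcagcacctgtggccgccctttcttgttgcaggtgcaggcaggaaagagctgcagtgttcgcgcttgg
The Cldn6 window held 1 match to CAGAC, the Cldn3 window none of the 4 motifs, and the Cldn4 window 1 match to the short SMAD element and 2 to the AP-1 motif. Among all 32851 promoter windows tabulated, 49.6% held the short SMAD element and 7.81% the AP-1 motif. Of the 10 claudins 9 were in the table, with 13 windows, and none of the 13 had GTCTAGAC, present in 0.213% of all windows, or AACCNGTT, present in 2.09%. A match is a description of the letters only.

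Among the sealing claudins, Cldn8 is best known from the kidney and the colon, where it helps to close the junction to ions and, in the kidney collecting duct, brings claudin-4 to the junction. It is a gene of 1 exon on the minus strand of chromosome 16 (88560828 to 88563183, GRCm38). Its normalized counts were 892, 1010, 1020, 998 and 1042 in Smad4del mice A5216, A5217, A5218, A5447 and A5624, against 547, 569, 580, 550 and 586 in Ctl mice A5215, A5219, A5221, A5626 and A5628. Every Smad4del mouse lay above every Ctl mouse, and the gap between the cohorts was wider than the spread within either. The means were 992 ± 58.6 in Smad4del cells and 567 ± 17.4 in Ctl cells (SD, n = 5 each). This is a log2 fold change of 0.81 (SE 0.086, 95% interval 0.62 to 0.99), or 1.75-fold, with a limma adjusted p of 0.000539. The exact two-sided permutation test gave p = 0.00794, which is the lowest value that 2 groups of 5 can give. The values rest on 860 to 1084 reads per Smad4del mouse and 503 to 670 per Ctl mouse, for which counting alone gives a coefficient of variation of 3.18% and 4.15%. The mice varied by 5.91% in Smad4del cells and by 3.06% in Ctl cells, the latter no more than the counting value. A spread over 5 mice is imprecise, and the methods describe amplified RNA, whose reads need not be independent. Variation between the Ctl mice is therefore not excluded.

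Cldn8 was also set against Epcam of the same mouse, as a description. The ratio of the normalized counts of Cldn8 and Epcam ranged from 0.0351 to 0.0433 (median 0.0378) in Smad4del mice and from 0.0217 to 0.0325 (median 0.0227) in Ctl mice. The highest Ctl ratio was that of A5215, the mouse with the lowest cholangiocyte marker sum. The ratio of Cldn8 to Cldn3 was 0.0749 to 0.0925 in Smad4del mice and 0.0527 to 0.0765 in Ctl mice, and these ranges overlapped. Leaving out any 1 mouse kept Cldn8 called, with log2 fold changes of 0.79 to 0.84 and limma adjusted p-values of 0.001 to 0.00289. Its call was lost with the mean log2 level of the endothelial markers as a second term in limma (log2 fold change 0.75, adjusted p = 0.78), a fit in which 0 of the 14870 genes were called, and with that of the mesenchymal markers (0.79, limma adjusted p = 0.166).

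Cldn6 is known above all from embryonic epithelia and is silent in most adult ones. It lies on the plus strand of chromosome 17 (23679249 to 23682446), 137 bases from Cldn9. Its normalized counts were 6091, 5896, 5971, 7015 and 5248 in the Smad4del mice, in the order of mice given for Cldn8, against 2359, 4686, 4718, 4683 and 4421 in the Ctl mice. The cohorts did not overlap. In the Ctl cohort 4 mice lay close together and A5215 lay far below them, a mouse that was also the lowest of its cohort for 6 of the 10 claudins. Cldn6 averaged 6044 ± 634 in Smad4del cells and 4173 ± 1021 in Ctl cells (SD, n = 5 each), a log2 fold change of 0.57 (SE 0.178, 95% interval 0.18 to 0.96), and missed the threshold (limma adjusted p = 0.0691; exact permutation p = 0.00794). Without A5215 the log2 fold change was 0.38 and Cldn6 was called (limma adjusted p = 0.0326). Set against Epcam of the same mouse, Cldn6 was 0.218 to 0.247 in Smad4del mice and 0.14 to 0.186 in Ctl mice, again with no overlap. Set against Cldn3, it was 0.438 to 0.622 (median 0.49) in Smad4del mice and 0.33 to 0.545 (median 0.495) in Ctl mice. Those ranges overlapped. With the mean log2 level of the cholangiocyte markers as a second term, Cldn6 was at 0.21 on the log2 scale (limma adjusted p = 0.417).

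Cldn3, a sealing claudin of many glandular and duct epithelia, was the most abundant of the 10 per length in every mouse. Its single exon lies on the plus strand of chromosome 5 (134986214 to 134987472) and shares 40 bases with an antisense gene, Wbscr25, whose mean was 18.3. Whether counting used strand is not stated in the methods or labels, so reads of the shared bases cannot be assigned to either gene. The normalized counts of Cldn3 were 10117, 12030, 13624, 11281 and 11267 in Smad4del mice, against 7158, 10788, 8658, 9460 and 8682 in Ctl mice. Only Smad4del mouse A5216 lay below a Ctl mouse, A5219. Cldn3 averaged 11664 ± 1291 in Smad4del cells and 8949 ± 1324 in Ctl cells (SD, n = 5 each), with a log2 fold change of 0.39 (SE 0.113, 95% interval 0.14 to 0.64), and missed the threshold (limma adjusted p = 0.0587; exact permutation p = 0.0159). It passed without Ctl mouse A5219 (log2 fold change 0.46, limma adjusted p = 0.0299) and without Smad4del mouse A5216 (0.44, limma adjusted p = 0.0494).

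Cldn7, which binds EPCAM in the membrane of epithelial cells and is stabilised by it, behaved much like Cldn3. Its normalized counts were 10454, 11146, 11821, 10528 and 9847 in Smad4del mice, against 6338, 10285, 9286, 8282 and 8232 in Ctl mice. Again 4 of 5 Smad4del mice lay above every Ctl mouse, and the 1 overlap came from Ctl mouse A5219 and Smad4del mouse A5624. Cldn7 averaged 10759 ± 751 in Smad4del cells and 8485 ± 1466 in Ctl cells (SD, n = 5 each), a log2 fold change of 0.36 (SE 0.117, 95% interval 0.10 to 0.61) that missed the threshold (limma adjusted p = 0.0803; exact permutation p = 0.0159). Without Ctl mouse A5219 it passed (log2 fold change 0.43, limma adjusted p = 0.041). The ratio of Cldn7 to its partner Epcam was 0.37 to 0.451 in Smad4del mice and 0.325 to 0.409 in Ctl mice, and these ranges overlapped. The direction of Cldn6, Cldn3 and Cldn7 turned to lower with the endothelial markers as a second term. They were at -0.08 (SE 0.33), -0.16 (SE 0.164) and -0.22 (SE 0.164) on the log2 scale, and none of them was called. Smad4 itself was not called in that fit either. The endothelial sums did not overlap between the cohorts, so such a fit cannot tell this term from the cohort. Over the 10 mice the log2 levels of Cldn3 and Cldn7 correlated with a Pearson r of 0.925, and those of Cldn6 and Cldn7 with 0.904. Centred on the cohort means these were 0.841 and 0.808. Such values describe 10 libraries in which cohort, size factor and the share of other cells are common to all genes.

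**Figure D1:**
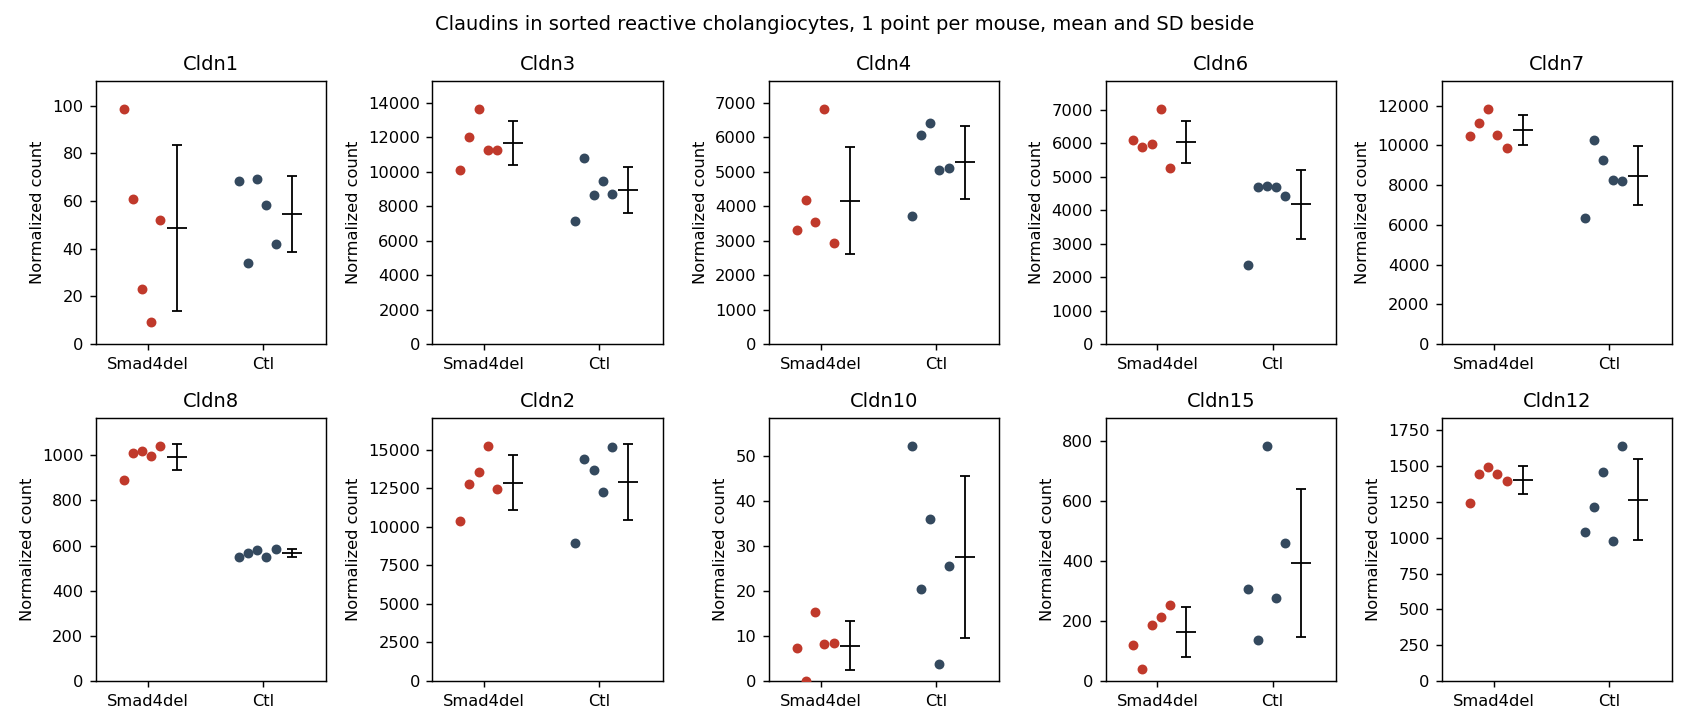
Normalized counts of the 10 claudins, with 1 panel per gene and its own axis from 0, 1 point per mouse, the 5 Smad4del mice left of the 5 Ctl mice, and the mean and SD as a bar beside the points. The 5 points of Cldn8 lie between 892 and 1042 in Smad4del mice and between 547 and 586 in Ctl mice, while those of Cldn2 share 1 range.

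Cldn4, unlike the other abundant sealing claudins, had its lower mean in Smad4del cells. It makes junctions tighter to cations in most epithelia, and its single exon lies on the minus strand of chromosome 5 (134945119 to 134946934). The normalized counts were 3305, 4191, 3554, 6814 and 2943 in Smad4del mice, against 3711, 6069, 6415, 5055 and 5110 in Ctl mice. In the Smad4del cohort 3 mice were below every Ctl mouse, while A5447 was above all of them. Cldn4 averaged 4161 ± 1551 in Smad4del cells and 5272 ± 1055 in Ctl cells (SD, n = 5 each), with a log2 fold change of -0.38 (SE 0.215, 95% interval -0.85 to 0.09) that did not pass (limma adjusted p = 0.268; exact permutation p = 0.167). Without Smad4del mouse A5447 it was called lower (log2 fold change -0.58, limma adjusted p = 0.0464). Centred on the cohort means, the log2 levels of Cldn4 correlated with those of Cldn6, Cldn7 and Cldn3 at a Pearson r of 0.705, 0.526 and 0.342.

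Cldn4 and Cldn3, the neighbours on chromosome 5, can be set against each other within a mouse, a ratio that was chosen after the values were seen and is given without a test. The ratio of normalized counts of Cldn4 to Cldn3 was 0.327, 0.348, 0.261, 0.604 and 0.261 in Smad4del mice, against 0.518, 0.563, 0.741, 0.534 and 0.589 in Ctl mice. In 4 of 5 Smad4del mice the ratio was below that of every Ctl mouse, and A5447 fell within the Ctl range.

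**Figure D2:**
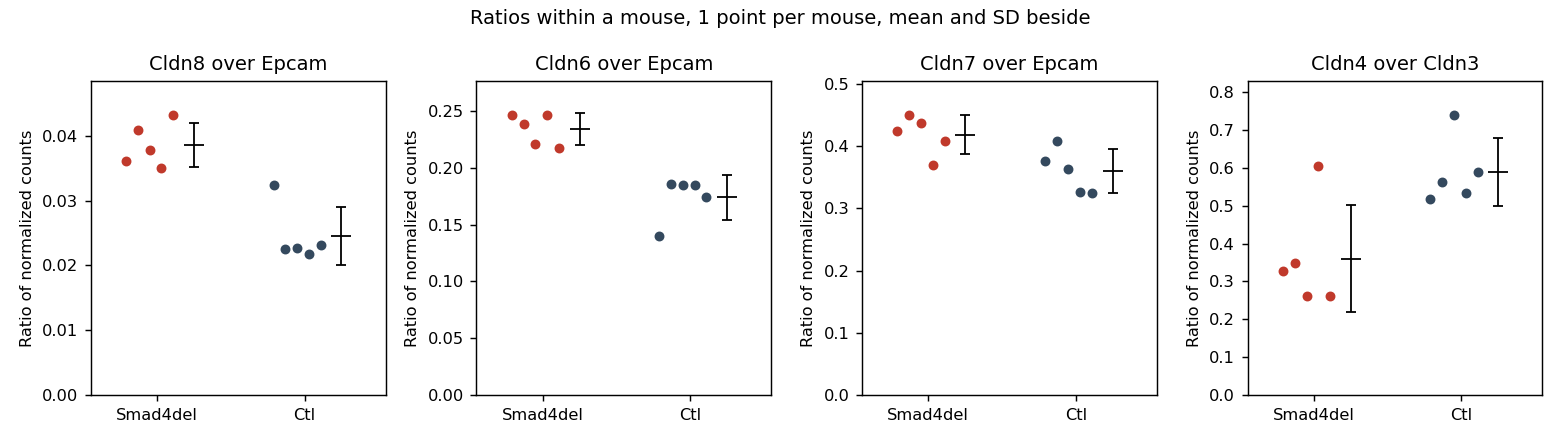
Ratios of normalized counts within each mouse for Cldn8, Cldn6 and Cldn7 over Epcam and for Cldn4 over Cldn3, with 1 point per mouse, Smad4del left of Ctl, and the mean and SD beside the points. The ratios of Cldn8 and of Cldn6 to Epcam do not overlap between the cohorts, and the ratio of Cldn4 to Cldn3 is 0.604 in mouse A5447 and at most 0.348 in the other Smad4del mice.

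Cldn1, the sealing claudin whose loss in humans causes a disease of skin and bile ducts, was scarce in these sorted cells. Its normalized counts ranged from 9.21 to 98.5 in Smad4del mice and from 34.0 to 69.4 in Ctl mice. The Smad4del values enclosed the Ctl values, and the log2 fold change of -0.49 (95% interval -1.7 to 0.73) did not pass (limma adjusted p = 0.601; exact permutation p = 0.484). It depended on single mice, with -0.01 without Smad4del mouse A5447 and -0.83 without Smad4del mouse A5216. The mice varied by 71.3% in Smad4del cells, where counting alone gives 14.5%.

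Of the pore-forming claudins, Cldn2, a pore for sodium ions and water, was abundant and did not differ beyond the spread between mice. Its normalized counts were 10357, 12745, 13573, 15244 and 12419 in Smad4del mice, against 8972, 14377, 13684, 12250 and 15192 in Ctl mice. The lowest value was again that of Ctl mouse A5215. Cldn2 averaged 12868 ± 1779 in Smad4del cells and 12895 ± 2445 in Ctl cells (SD, n = 5 each). Its log2 fold change was 0.01 with a 95% interval of -0.31 to 0.33 (limma adjusted p = 0.977; exact permutation p = 0.944), an interval whose upper end is just under the change measured for Cldn7.

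Cldn15, a cation pore of the gut, and Cldn10, whose isoforms form cation or anion pores, had lower means in Smad4del cells and varied widely. The normalized counts of Cldn15 ranged from 40.9 to 253 (median 186) in Smad4del mice and from 136 to 785 (median 306) in Ctl mice. The cohorts overlapped, and the log2 fold change of -1.27 (SE 0.53, 95% interval -2.43 to -0.12) did not pass (limma adjusted p = 0.147; exact permutation p = 0.0714). It was -0.84 without Smad4del mouse A5217 and -0.01 with the endothelial markers as a second term. Cldn10 had 7, 0, 15, 9 and 8 reads in Smad4del mice and 48, 24, 39, 4 and 23 reads in Ctl mice, so that each value carries a large counting error, though the mice varied by more than that. Its log2 fold change of -1.77 (SE 0.86) did not pass (limma adjusted p = 0.205; exact permutation p = 0.0873), and the counts do not separate its isoforms. Without A5217, the mouse with 0 reads, the log2 fold change was -1.10, and with a pseudocount of 10 it was -0.97. Over the 10 mice the log2 levels of Cldn10 and Cldn15 correlated with a Pearson r of 0.766.

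Cldn12 lacks the tail by which most claudins bind the scaffold of the junction. Its normalized counts ranged from 1244 to 1491 (median 1443) in Smad4del mice and from 975 to 1641 (median 1214) in Ctl mice, so that the Smad4del values lay within the Ctl range. The log2 fold change was 0.17 (95% interval -0.13 to 0.48; limma adjusted p = 0.442; exact permutation p = 0.254).

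With DESeq2 on the read counts recovered from the normalized values, Cldn8, Cldn6 (log2 fold change 0.53, adjusted p = 0.0284) and Cldn3 (0.38, adjusted p = 0.0242) were called higher and Cldn15 lower (-1.27, adjusted p = 0.0471). The same model called 5.67% of all genes higher and 8.39% lower. Without mouse A5217, in which 1 read is worth 0.9983 and so close to 1, DESeq2 called only Cldn8 among the 10 claudins. Over all genes that fit, with 1 mouse fewer, called 486 higher and 1025 lower, against 930 and 1375 with all 10 mice.

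The make-up of the claudin transcripts was compared after dividing each normalized count by the exon length of the gene. That length counts each base in an exon of any transcript once, 4228 for Cldn12 and 2356 for the single-exon Cldn8. The order of genes per kilobase depends on this choice. Per kilobase of exon, Cldn3 averaged 9264 in Smad4del cells and 7108 in Ctl cells and Cldn7 averaged 5523 in Smad4del cells and 4356 in Ctl cells. Cldn2 followed with 3870 in Smad4del cells and 3878 in Ctl cells, and Cldn6 with 3512 in Smad4del cells and 2425 in Ctl cells. Cldn4 averaged 2291 per kilobase in Smad4del cells and 2903 in Ctl cells. These 5 genes were the highest in every mouse. Cldn8 averaged 421 per kilobase in Smad4del cells and 240.5 in Ctl cells, and Cldn12 averaged 332 in Smad4del cells and 299 in Ctl cells. Lower still were Cldn15, with 76.6 in Smad4del cells and 185 in Ctl cells, Cldn1, with 10.1 in Smad4del cells and 11.3 in Ctl cells, and Cldn10, with 3.02 in Smad4del cells and 10.7 in Ctl cells.

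The order of neighbours differed between the cohorts at 2 places. Cldn6 was above Cldn4 per kilobase in 5 of 5 Smad4del mice and in 0 of 5 Ctl mice. Cldn8 was above Cldn12 in 5 of 5 Smad4del mice and in 1 of 5 Ctl mice. Elsewhere Cldn3 was above Cldn7 in all 10 mice, Cldn7 above Cldn2 in 5 Smad4del and 4 Ctl mice, and Cldn2 above Cldn6 in 4 Smad4del and 5 Ctl mice. Cldn1 and Cldn10, the lowest, changed places from mouse to mouse.

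As a share of the 10 claudins per kilobase, Cldn3 took 36.6% (32.4 to 39.7) in Smad4del mice and 33.4% (29.9 to 36.2) in Ctl mice. Cldn4 took 8.95% (6.95 to 13.6) in Smad4del mice and 13.5% (12.8 to 15.3) in Ctl mice. The share of Cldn2 was 15.3% (13.8 to 16.6) in Smad4del mice and 18.1% (17.1 to 20.8) in Ctl mice, without overlap, although its own level was nearly the same in both cohorts. Shares add up to a whole, so a lower share is not a lower level. Cldn6 took 13.9% (12.7 to 15.6) in Smad4del mice and 11.2% (8.73 to 12.6) in Ctl mice.

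**Figure D3:**
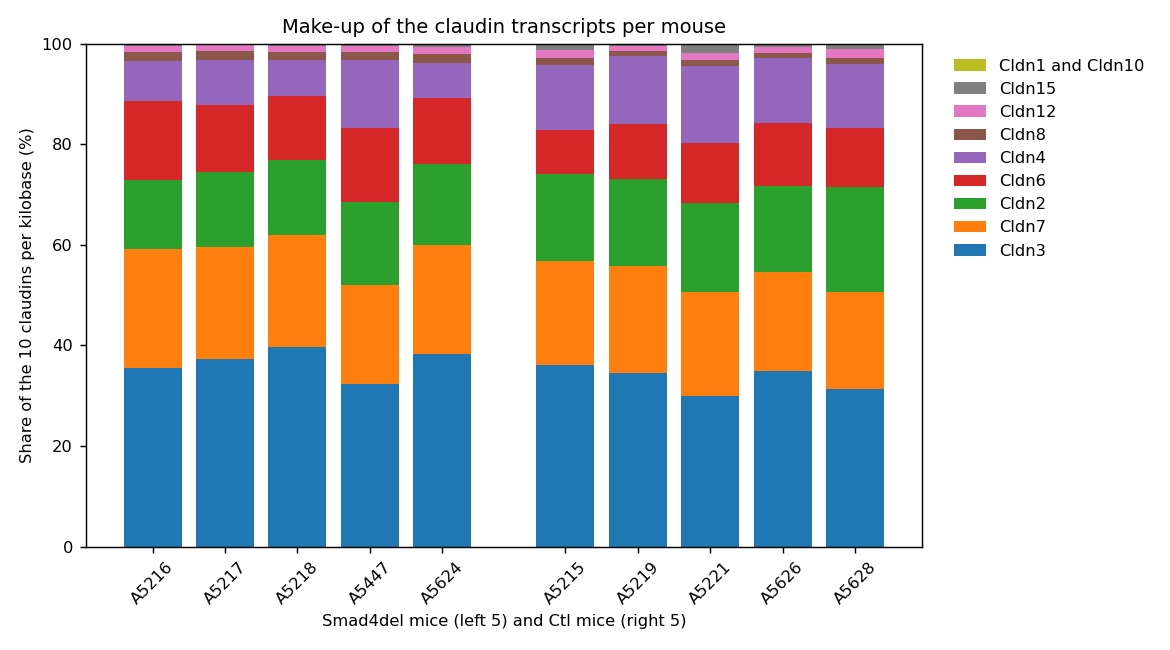
Stacked bars of the share (%) of each claudin in the summed normalized counts per kilobase of the 10 claudins, with 1 bar per mouse and the 5 Smad4del mice left of the 5 Ctl mice. Cldn3 is the largest part of every bar, and the Cldn4 part of mouse A5447, 13.6%, is like that of the Ctl mice, where it is 12.8 to 15.3%.

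The 15 other claudin rows held 8 genes at 0 in all mice and 5 that were tested, of which 0 were called higher and 1, Cldn5, was called lower, against 2.43% and 4.69% of all genes. Cldn5 is the claudin of blood vessel endothelium and is not known as a bile duct gene. Its normalized counts were 292, 256, 197, 282 and 391 in Smad4del mice, against 922, 476, 409, 466 and 432 in Ctl mice. The cohorts did not overlap (log2 fold change -0.89, 95% interval -1.42 to -0.37, limma adjusted p = 0.0462). Ctl mouse A5215, which had the highest endothelial marker sum (42738), was also the highest for Cldn5. Next came Ctl mouse A5219, at 476, which had the lowest endothelial marker sum of the Ctl mice (15550). What part endothelial cells had in Cldn5 was not tested. Without A5215 the log2 fold change was -0.68 and the call was lost (limma adjusted p = 0.066), as it was without each of 8 of the other 9 mice. With the endothelial markers as a second term, the direction turned to 0.33. Cldn23 (log2 fold change 0.46, limma adjusted p = 0.11), Cldn14 (0.60, adjusted p = 0.184), Cldn18 (1.01, adjusted p = 0.367) and Cldn9 (-1.10, adjusted p = 0.622) did not pass in limma.

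The other proteins of the tight junction were taken as a list of 37 genes, all of which were tested. In this list 0 genes were called higher and 3 lower, against 2.43% and 4.69% of all genes, and its median log2 fold change was 0.043, against -0.005 for all genes. The membrane proteins occludin (Ocln, log2 fold change 0.12, limma adjusted p = 0.446) and tricellulin (Marveld2, 0.14, adjusted p = 0.584) and the adhesion protein JAM-A (F11r, 0.05, adjusted p = 0.727) did not pass in limma. Nor did the scaffold genes that tie claudins to actin, Tjp1 (-0.37, limma adjusted p = 0.177), Tjp3 (0.44, adjusted p = 0.107) and Cgn (-0.16, adjusted p = 0.648). Crb3 and Ildr1, an apical polarity protein and a protein of junctions where 3 cells meet, had all Smad4del mice above all Ctl mice but were not called (log2 fold changes 0.43 and 0.45, limma adjusted p = 0.0704 and 0.0739). Both were chosen for mention after their values were seen. They are 2 of the 37 genes, a lack of overlap in that direction being found for 3.5% of all genes, and 2 other genes of the list had all Smad4del mice below all Ctl mice, against 4.59% of all genes.

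The 3 genes called lower were Jam2, Esam and Ildr2. Jam2 and Esam code for adhesion proteins that endothelial cells carry at their junctions. Jam2 averaged 2366 ± 747 in Smad4del cells and 9153 ± 2448 in Ctl cells (SD, n = 5 each), with no overlap (log2 fold change -1.97, limma adjusted p = 0.00177). Esam averaged 916 ± 255 in Smad4del cells and 2538 ± 1010 in Ctl cells (SD, n = 5 each), also with no overlap (-1.42, limma adjusted p = 0.0138). Ildr2, a relative of Ildr1, averaged 184 ± 50.7 in Smad4del cells and 362 ± 99.4 in Ctl cells (SD, n = 5 each), with overlap (-0.97, limma adjusted p = 0.0446). The endothelial marker sums were 4663 to 11057 in Smad4del mice and 15550 to 42738 in Ctl mice. The mesenchymal sums were 7892 to 14144 in Smad4del mice and 17037 to 44527 in Ctl mice. Like Cldn5, Jam2 and Esam, neither sum overlapped between the cohorts. Jam2 was highest in Ctl mouse A5221, and Esam and Cldn5 were highest in Ctl mouse A5215. In Ctl mouse A5628 Jam2 was 10607.5, above the 10014 of A5215. Over the 30 alternatives the call was kept in 26 for Jam2, 24 for Esam, 12 for Ildr2 and 10 for Cldn5. What part other cells had in these values was not tested. With the endothelial markers as a second term Jam2 was at -0.86, Esam at -0.06 and Ildr2 at -0.41 on the log2 scale, with 0 genes called in all. With the mesenchymal markers as that term Jam2 was at -1.71, Esam at -0.78, Ildr2 at -0.78 and Cldn5 at -0.32, and none of them was called. Ildr2 also lost its call without each of 8 of the 10 mice, at log2 fold changes of -1.05 to -0.83.

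**Figure D4:**
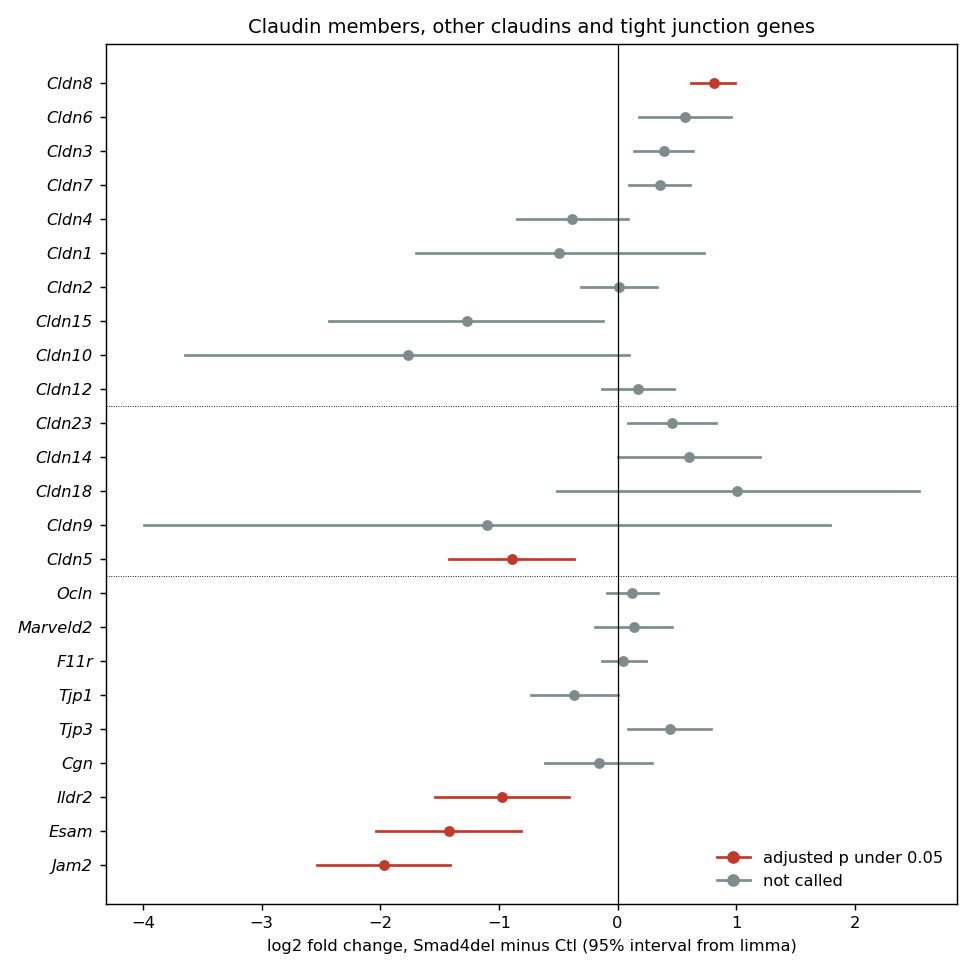
Log2 fold changes, Smad4del minus Ctl, with 95% intervals from limma, for the 10 claudins, the 5 other claudins that were tested and 9 named tight junction genes, separated by dotted lines. Among the claudins of the upper group only the point of Cldn8, at 0.81, is red, which marks an adjusted p under 0.05, and the red points of the lower groups, Cldn5, Ildr2, Esam and Jam2, lie left of 0.

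The genes whose log2 levels followed Cldn8 most closely over the 10 mice, among genes with a mean of at least 50, were Gipc2 (Pearson r 0.98), Sectm1b (0.977) and Akr1c19 (0.973). Gipc2 codes for a PDZ-domain protein, Sectm1b for a secreted and membrane protein and Akr1c19 for an aldo-keto reductase. All of them rose in Smad4del cells, Gipc2 by 0.73, Sectm1b by 2.92 and Akr1c19 by 2.36 on the log2 scale (limma adjusted p = 0.00107, 0.00042 and 1.09e-05). The correlations include this difference between the cohorts, over 10 mice whose size factor is common to all genes of a library. These genes were picked by their correlation with Cldn8, which itself differed between the cohorts, so their rise is not a separate result.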

How the data were processed

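Sorted reactive cholangiocytes of 5 Smad4del and 5 Ctl mice were analysed as 1 sample per mouse. The labels carry the tag cell line and a culture protocol, while the methods describe cells sorted from livers. The deposited signal values (normalized counts) come from reads that the authors cleaned with Trimmomatic 0.36 and mapped to GRCm38.p5 by STAR. Reads per GENCODE M12 gene were taken with featureCounts (subread 1.5.0p3), and DESeq2 1.14.1 under R 3.3.2 supplied 1 size factor per mouse as divisor. A further build, mm9, stands in the submitters' processing notes. The sources used here do not say whether multi-mapping reads entered the deposited values, so genes with near-identical copies are uncertain.

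Dividing the deposited values by the smallest one in each mouse gave whole reads in 100% of cases (tolerance 1e-06). In A5217 that step is close to 1, so the count tests were run with and without this mouse.

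Log2(normalized count + 1) was fitted by limma 3.58.1 (R 4.3.3, trended prior) on the cohort alone, for genes averaging 10 or more, with p-values adjusted after Benjamini and Hochberg. Exact permutation tests were two-sided. The members and lists were chosen with earlier results of these data known. Named genes were the 10 claudins, with values per mouse where called or with a mean above 500, Smad4, other claudins tested, 7 fixed tight junction genes (1 is not reported here) and up to 6 called ones, and 3 genes most like each called claudin. Alternatives were pseudocounts of 0.5 and 10, no filter and a minimum of 50, other scalings, sample weights, edgeR 4.0.16 and DESeq2 1.42.0 on recovered reads, mean log2 marker levels or the range of mouse numbers as a second term (mesenchymal and cholangiocyte markers chosen after seeing the data), mouse numbers A5215 to A5221 or A5447 to A5628 alone, and each mouse left out. Exon lengths, taken over all transcripts of a gene with shared bases counted once, and positions are those of GENCODE M21. Nothing in the labels says that mice were handled in batches.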

Additional observations from a re-analysis of the deposited data

Results flagged for a closer look

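Groups of 5 mice were looked at for 1 mouse far from the other 4, by the gap to the nearest mouse over the range of the group, with 0.71 as the limit. Of 52 groups (26 named genes in 2 cohorts) 3 were past it, where chance alone gives about 1 in 20. Cldn6 in Ctl mouse A5215 was 2359, below 4421 to 4718 in the other Ctl mice. Cldn5 in the same mouse was 922, above 409 to 476 in the other Ctl mice. A5215 also had the lowest sum of cholangiocyte markers, 373374, and the highest sum of endothelial markers, 42738, and their part in these values was not tested. Cldn8 in Smad4del mouse A5216 was 892, below 998 to 1042 in the other Smad4del mice and still above every Ctl mouse.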

How the results depend on the processing

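Over 30 alternatives and 26 named genes, 672 of 777 values kept their direction and their side of the threshold, 53 fell out of the calls, 11 came into them and 41 changed direction. Cldn8 was called in 26 of 30, with log2 fold changes of 0.73 to 0.87. Its call was lost with the endothelial (0.75) and mesenchymal (0.79) marker level as a term and in the mice numbered A5215 to A5221 alone (0.78) or A5447 to A5628 alone (0.84), where fewer mice were fitted. Without 1 mouse each it was 0.79 to 0.84. The claudins called higher numbered 0 in those 4 fits, 2 with median scaling or sample weights, 3 with DESeq2 and 1 to 3 without 1 mouse each, and those called lower 1 with DESeq2 and 0 to 1 without 1 mouse each.

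Of all genes, 362 were called higher and 697 lower. The counts were 209 higher with no filter, 579 with quantile normalization, 626 with median scaling, 930 higher and 1375 lower with DESeq2, and 89 and 265 with edgeR on the 9 mice other than A5217. With a marker level as a term they were 0 and 0 (endothelial), 1 and 6 (mesenchymal), 66 and 204 (cholangiocyte), 131 and 344 (hepatocyte) and 167 and 425 (macrophage). The lower range of mouse numbers gave 9 and 50, and the upper range 0 and 0. Without 1 mouse each they were 99 to 564 higher and 324 to 841 lower. Counts moved by over 1.5 times without A5217 (99 and 324), A5218 (131 and 339), A5221 (160 and 383), A5215 (199 and 461), A5624 (197 higher), A5447 (564 higher) and A5626 (457 lower). The cause was not tested.

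Direction changed with the endothelial term for Cldn1 (0.34), Cldn2 (-0.49), Cldn3 (-0.16), Cldn6 (-0.08), Cldn7 (-0.22), Cldn12 (-0.11), Cldn5 (0.33), Cldn14 (-0.58), Cldn9 (1.0), Ocln (-0.12), Marveld2 (-0.37), Tjp1 (0.26) and F11r (-0.16). It changed with the macrophage term for Cldn1 (0.29), Cldn2 (-0.28), Cldn12 (-0.06), Ocln (-0.05), Marveld2 (-0.13) and F11r (-0.05), and with the mesenchymal term for Cldn2 (-0.25), Cldn10 (0.58), Ocln (-0.01), Marveld2 (-0.23) and F11r (-0.04). It changed with the cholangiocyte term for Cldn1 (0.25), Cldn2 (-0.32), Cldn12 (-0.04), Ocln (-0.07), Marveld2 (-0.18) and F11r (-0.09). In mice A5447 to A5628 alone it changed for Cldn18 (-0.51), Tjp1 (0.08) and Cgn (0.09). Cldn2, at 0.01, also changed sign with sample weights (-0.05) and with DESeq2 over 10 mice (-0.0031) or 9 (-0.0008), and without 1 mouse each it was -0.12 to 0.08. F11r was -0.01 without A5215. None of these values was called, and the cause was not tested. Smad4 itself was not called with the endothelial term. Cldn10 and Cldn1 rest on 0 to 48 and 10 to 95 reads per mouse, but in each cohort the mice varied by more than counting alone gives.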
